A study of Mus musculus with 3 samples.

Results

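Accessible chromatin was examined at 5 genes for the ion channels that turn a rise in glucose into insulin release in beta cells, Abcc8, Kcnj11, Trpm5, Cacna1c and Cacna1d, out of 22359 protein-coding genes with an annotated start. They were chosen by name, for their function, and every peak that overlapped a gene body or the 20 kb on either side was taken. ATAC-seq, in which a transposase inserts sequencing adapters into open chromatin, was performed on dissociated cells of mouse islets of Langerhans, with 1 library per group. The groups were wild type (WT), with no time given, and Taf4 KO at 1 week and 5 weeks past the inactivation of Taf4, a component of the TFIID complex that loads RNA polymerase II at promoters. All mice carried the strain label C5LBl6. According to the study, adult Ins1::Cre-ERT2 mice with either floxed (lox/lox) or normal (+/+) Taf4 alleles were all injected with tamoxifen, so the controls also carried the driver and the agent. The driver acts in insulin-producing cells, so Taf4 loss was directed at beta cells and at cells that arise from them, while the libraries were made from all islet cells. The number of mice behind a library was not given in the sources used here. With single libraries the spread between animals is unknown, and every difference below is one between libraries.

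In beta cells the channel made of Sur1 (Abcc8) and Kir6.2 (Kcnj11) lets potassium out at rest and closes when glucose metabolism raises ATP. The membrane then depolarises, L-type calcium channels open, and the calcium that enters triggers the fusion of insulin granules. Abcc8 encodes the regulatory subunit that binds sulphonylureas, Kcnj11 the pore of the same channel, Trpm5 a cation channel opened by intracellular calcium that adds to depolarisation, and Cacna1c and Cacna1d the pore-forming subunits Cav1.2 and Cav1.3 of the L-type channels. In islets, promoters and intronic enhancers of such genes are commonly open in beta cells, and an ATAC-seq peak marks such a place without measuring transcription.

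All 5 genes lie on the minus strand of mm9. Abcc8 (ENSMUSG00000040136) covers chr7:53359893-53435403, and Kcnj11 (ENSMUSG00000070561), a gene of 3075 bp at chr7:53352533-53355607, starts 4286 bp beyond the end of Abcc8. All 18 peaks of the Kcnj11 locus also fell in the Abcc8 locus and were counted only once in totals. Trpm5 (ENSMUSG00000009246) lies at chr7:150255058-150280547, Cacna1c (ENSMUSG00000051331) at chr6:118542314-119146249 and Cacna1d (ENSMUSG00000015968) at chr14:30853135-31304342. The 2 calcium channel genes are long, with 603936 and 451208 bp, so most of their peaks could only be intronic. The 1 Mb around Abcc8 and around Kcnj11 belonged to the most GC-rich of 5 equal groups of genes, and the other members to the next group.

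The 250 bases before a start of each gene are shown because the promoter calls described below turn on them. They were read from mm9 on the coding strand, 5′ to 3′, at chr7:53435404-53435653, chr7:53355608-53355857, chr7:150280548-150280797, chr14:31166673-31166922 and chr6:118730343-118730592. Capitals mark words that were searched on both strands, GGGCGG (GC box), CACGTG (an E-box) and TGCTGA (Maf-type word).
Abcc8: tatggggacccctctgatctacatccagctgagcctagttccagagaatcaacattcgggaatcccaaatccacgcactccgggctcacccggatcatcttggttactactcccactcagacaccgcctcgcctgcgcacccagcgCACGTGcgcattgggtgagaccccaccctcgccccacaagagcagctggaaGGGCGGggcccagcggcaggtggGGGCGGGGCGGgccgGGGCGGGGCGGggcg
Kcnj11: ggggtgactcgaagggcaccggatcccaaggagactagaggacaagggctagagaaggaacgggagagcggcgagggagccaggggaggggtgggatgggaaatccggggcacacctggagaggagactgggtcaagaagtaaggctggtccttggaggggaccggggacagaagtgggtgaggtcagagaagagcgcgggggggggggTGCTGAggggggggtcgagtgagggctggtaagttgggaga
Trpm5: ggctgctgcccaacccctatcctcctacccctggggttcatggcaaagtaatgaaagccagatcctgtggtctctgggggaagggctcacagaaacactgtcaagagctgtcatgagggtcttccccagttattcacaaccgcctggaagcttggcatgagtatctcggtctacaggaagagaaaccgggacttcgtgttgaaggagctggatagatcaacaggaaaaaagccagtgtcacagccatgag
Cacna1d, start at 31166672: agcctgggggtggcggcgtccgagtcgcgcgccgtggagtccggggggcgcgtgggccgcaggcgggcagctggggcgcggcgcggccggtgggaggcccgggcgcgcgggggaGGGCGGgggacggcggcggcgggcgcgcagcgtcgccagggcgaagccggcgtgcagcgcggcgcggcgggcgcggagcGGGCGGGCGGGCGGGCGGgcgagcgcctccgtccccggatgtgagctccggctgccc
Cacna1c, start at 118730342: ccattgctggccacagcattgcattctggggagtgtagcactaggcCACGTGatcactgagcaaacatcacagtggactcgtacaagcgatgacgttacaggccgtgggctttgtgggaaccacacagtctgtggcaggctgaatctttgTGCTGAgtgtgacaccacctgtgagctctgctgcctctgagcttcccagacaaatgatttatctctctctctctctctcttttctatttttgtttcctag

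These windows differed in composition. The Cacna1d window was 86.4% GC with 50 CpG dinucleotides and the Abcc8 window 66.8% GC with 19, against medians of 55.6% and 9 over 46015 such windows. Each held 5 matches of GGGCGG, some of them overlapping, and this word occurred in 41.1% of all windows. The Kcnj11 window had 64.8% GC and 10 CpG, and the Trpm5 window 52.8% GC and 4. CACGTG was found in the Abcc8 and Cacna1c windows and in 6.63% of all, and TGCTGA in the Kcnj11 and Cacna1c windows and in 14.9% of all. The other words searched were found in none of these windows. Of all windows, the TATA box word TATAAA occurred in 10.5%, the homeodomain core word TAATTA occurred in 3.95%, the NeuroD1-type E-box word CAGATG occurred in 12.5%, the forkhead word TGTTTAC occurred in 2.65%, the AP-1 word TGANTCA occurred in 5.61% and the Hnf1-type word GTTAAT occurred in 5.43%. The Trpm5 window held none of the 9 words. The Cacna1c start at 118730342, the first base of 3 transcripts, is also the edge of exon 4 of the longest Cacna1c transcript, and the window ends in a pyrimidine-rich run and ag, as an intron does before an exon. The call at this start therefore cannot be told apart from open chromatin at an internal exon.

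The peak lists held 60898 peaks in WT, 150354 after 1 week (2.47 times) and 151725 after 5 weeks (2.49 times). The level of background reads recovered from each list was 1.76 times the WT value after 1 week and 2.57 times after 5 weeks, so the lists differed in depth or, if it was not equal, in how far the caller extended each read. Promoter peaks of islet markers were checked in each list, in the order WT, 1 week and 5 weeks. They were found for 10, 10 and 10 of 10 beta cell markers, 5, 5 and 6 of 6 alpha, 1, 3 and 4 of 4 delta, 0, 0 and 1 of 6 acinar, 1, 3 and 4 of 6 endothelial, 0, 1 and 0 of 6 immune and 0, 0 and 4 of 6 stellate cell markers. Over all protein-coding genes the shares with a promoter peak were 59.0%, 55.9% and 65.6%. The part of other cell types in the results was not tested, and fewer beta cells and fewer reads per beta cell cannot be told apart in bulk tissue. The Taf4 gene itself had a promoter peak in each list, which does not measure the deletion.

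The channel loci did not share in the growth of the lists after 1 week. Together they held 105 peaks in WT, 68 after 1 week (0.648 times) and 122 after 5 weeks (1.16 times). Abcc8 had 18 peaks in WT, 12 after 1 week and 23 after 5 weeks. Kcnj11 had 7, 5 and 6, Trpm5 6, 3 and 10, Cacna1c 47, 34 and 51, and Cacna1d 34, 19 and 38. The 1 week count was the lowest at each locus, and the 5 week count was above WT at each locus but Kcnj11. A lower count after 1 week was common, however. Of 5988 genes with 5 or more WT peaks, 75.6% had fewer after 1 week, 50.7% had more after 5 weeks and 30.5% had both, with median ratios of 0.667 and 1.08. In the most GC-rich group of genes the share with fewer after 1 week was 94.3%, and in the next group 84.5%, so a lower count was the rule for genes of such GC content. The caller rates each peak by a -log10 q, which is higher for a more certain peak and grows with depth. The fall after 1 week was not seen under a filter by q. Among peaks of -log10 q 3 or more the loci held 51 in WT and 52 after 1 week, where the whole lists held 35554 and 43950, and among those of 5 or more they held 33 and 39, where the lists held 24100 and 23953. An equal q is a looser limit in a deeper library, and the part of depth was not tested. In lists cut to an equal number of peaks the fall was kept, with 56 peaks against 105, while the 5 week count of 89 was then below WT. After the Taf4 KO pileups were scaled down to the WT background level the counts were 57 and 81, also both below WT, where the whole lists held 60897, 62934 and 51890 in WT, after 1 week and after 5 weeks.

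**Figure D1:**
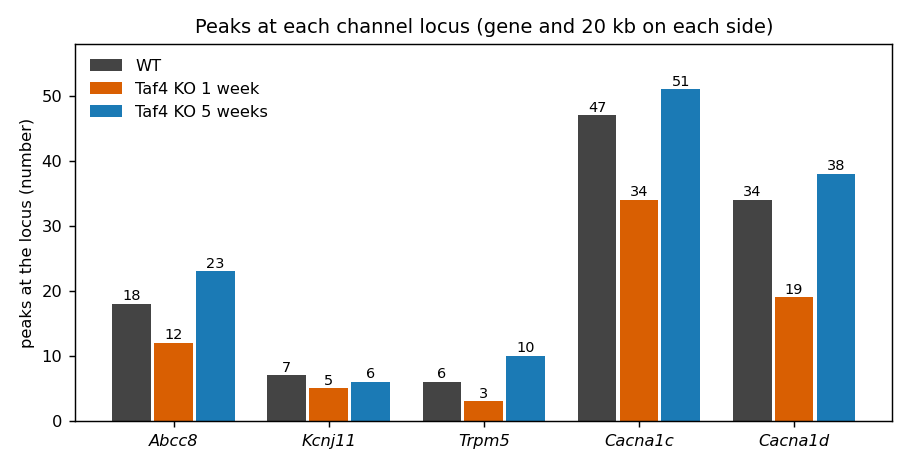
Number of peaks (vertical axis) at each channel locus (horizontal axis), with 1 bar per library. At every locus the Taf4 KO 1 week bar is the lowest, for example 19 at Cacna1d against 34 in WT, and at all but Kcnj11 the 5 weeks bar is the highest.

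When overlapping peaks of the lists were joined, the loci held 151 of 233507 regions. Of these, 57 (37.7%) were found in all 3 lists, against 15.7% of all regions. A single one, upstream of Cacna1c, was found in WT and after 1 week (0.662%, against 0.397%). A further 28 (18.5%, against 4.91%) were found in WT alone and 18 (11.9%, against 4.88%) in WT and after 5 weeks. Most of the 233507 regions had no WT peak, which lowers the share of each class with one. These higher shares at the loci therefore do not mean that WT peaks there were kept more often, and the shares found again are given below. At the loci, regions without a WT peak were mostly those of 5 weeks. There were 7 (4.64%, against 17.9%) in both of them, 39 (25.8%, against 26.2%) after 5 weeks alone, and a single one (0.662%, against 30.0%) after 1 week alone, in an intron of Cacna1c at chr6:119035872-119036076 with a -log10 q of 1.39. The WT regions lost in both Taf4 KO lists were weak, with -log10 q between 1.13 and 2.78 and a median of 1.71, whereas those found in all lists had a median of 5.59 in WT. Over the whole genome these medians were 1.78 and 6.13.

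The share of WT peaks found again was 58 of 105 after 1 week (55.2%, Clopper-Pearson 95% interval 45.2 to 65), against 61.9% of all WT peaks. After 5 weeks it was 76 of 105 (72.4%, 62.8 to 80.7), against 79.5%. These intervals, and all others given here, cover counting error only. When WT peaks were split into 5 groups by -log10 q, the loci stood below all WT peaks in the weaker groups and above them in most of the stronger ones. In the weakest group 6 of 29 were found after 1 week (20.7%), against 23.5%, and 10 of 29 after 5 weeks (34.5%), against 42.7%. In the next group 4 of 22 WT peaks at the loci were found after 1 week (18.2%, 5.19 to 40.3), against 42.6%, and 12 of 22 after 5 weeks (54.5%), against 68.2%. In the middle group 17 of 21 were found (81.0%, 58.1 to 94.6), against 65.6%. In the strongest groups it was 18 of 19 (94.7%), against 83.1%, and 13 of 14 (92.9%), against 94.5%. After 5 weeks each of the 21, 19 and 14 WT peaks in the 3 upper groups was found again, where the shares of all WT peaks were 89.8%, 97.2% and 99.6%. By gene, 12 of 18 WT peaks of Abcc8 were found after 1 week (66.7%), against 45.1% in its GC group. For Kcnj11 it was 5 of 7 (71.4%), against the same share, for Trpm5 3 of 6 (50%), against 54.0%, for Cacna1c 27 of 47 (57.4%), also against 54.0%, and for Cacna1d 16 of 34 (47.1%). The Cacna1d peaks lay in different GC groups, with 3 of 9 (33.3%) found in the middle group, against 61.3%, and 13 of 25 (52%) in the next, against 54.0%. After 5 weeks the shares were 16 of 18 (88.9%) at Abcc8 and 6 of 7 (85.7%) at Kcnj11, against 77.7%, and 5 of 6 (83.3%) at Trpm5 and 32 of 47 (68.1%) at Cacna1c, against 77.9%. At Cacna1d they were 5 of 9 (55.6%), against 78.8%, and 18 of 25 (72%), against 77.9%.

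**Figure D2:**
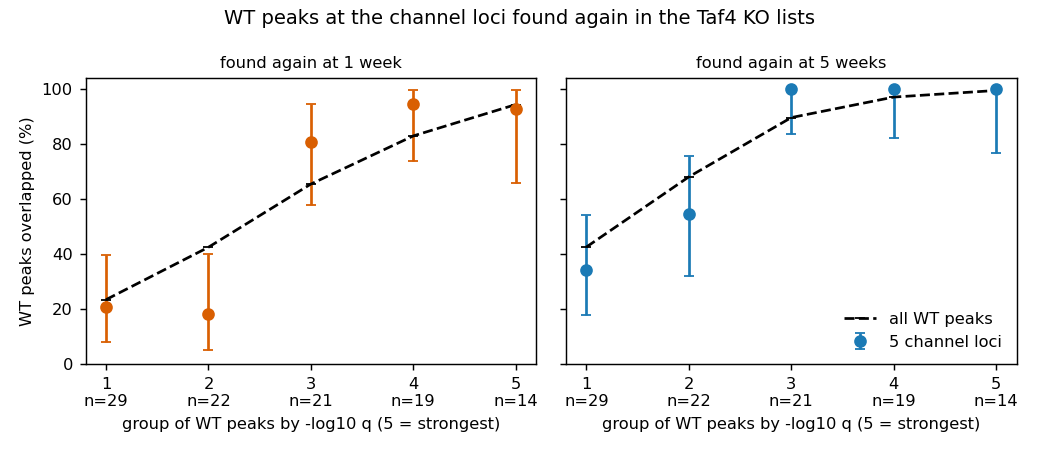
Share of WT peaks overlapped by a peak of the Taf4 KO 1 week list (left) or 5 weeks list (right), in percent, by group of the WT list from the weakest (1) to the strongest (5). Points are the 5 channel loci with Clopper-Pearson 95% intervals for counting error, n is the number of WT peaks at the loci, and dashed lines are all WT peaks. After 5 weeks the loci reach 100% in the 3 upper groups.

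Promoter peaks were sought between 1000 bp upstream and 100 bp downstream of a start. Among the 5 genes, 2 had one in WT (Abcc8 and Cacna1c), against 59.0% of all genes. After 1 week there was 1 (Cacna1c), against 55.9%, and after 5 weeks all 5, against 65.6%. Of all genes, 4.34% had a promoter peak after 5 weeks alone, as Kcnj11, Trpm5 and Cacna1d did, and 7.55% in WT and after 5 weeks but not after 1 week, as Abcc8 did. A promoter peak in all lists, as at Cacna1c, was found in 50.4% of genes. The 5 week calls of Kcnj11 and Cacna1d were the weakest of these and were absent when the lists were cut to an equal number of peaks, filtered at a -log10 q of at least 3, or scaled to the WT background, which left 3 of 5 genes in each case. Above a -log10 q of 5 only the Cacna1c call after 5 weeks was left.

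At Abcc8, the subunit that senses sulphonylureas, a peak lay across the start in WT and after 5 weeks. The WT peak at chr7:53435050-53435443 was 394 bp wide, with a mean fold of 2.17 over the local background, a -log10 q of 2.13 and percentile 26.1 when the peaks of its list are ranked by -log10 q. The 5 week peak at chr7:53434947-53435647 was 701 bp wide, with a fold of 2.29, a -log10 q of 4.44 and percentile 69.5. After 1 week the nearest peak was 7450 bp upstream. A WT call without one after 1 week occurred in 14.5% of genes with a WT promoter peak and in 29.4% of those in the GC group of Abcc8 and 17.9% in that of Cacna1c.

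At Kcnj11, the pore of the same channel, a peak over the single exon ended near the start in WT and after 1 week and ran across it after 5 weeks. The WT peak (chr7:53354291-53355468) stopped 139 bp inside the gene, 39 bp short of the promoter window, with fold 2.08 and -log10 q 2.84. The 1 week peak (chr7:53353545-53355171) stopped 436 bp inside, with fold 2.07 and -log10 q 1.30. The 5 week peak (chr7:53352754-53357085) was 4332 bp wide and ran from near the 3′ end of the gene to beyond its start, with fold 1.86 and -log10 q 2.89. The mean height, which is the read pileup over the peak in multiples of the lowest background of its library, was 10.1 in WT, 2.70 after 1 week and 5.21 after 5 weeks. In a window reaching 500 bp downstream, Kcnj11 was called in all 3 lists.

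At Trpm5, the calcium-activated cation channel, the full-length start at 150280547 had a peak only after 5 weeks. It lay 128 bp upstream (chr7:150280675-150280956), with a fold of 2.77, a -log10 q of 4.69 and percentile 70.7. The nearest WT peak was 6999 bp and the nearest 1 week peak 16982 bp inside the gene. The other 2 annotated starts belong to transcripts with an incomplete 5′ end and had no peak within 2.5 kb in any list.

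At Cacna1c, the gene of Cav1.2, the start at 118730342 lay under a peak in each list. Its fold was 3.22 in WT, 2.94 after 1 week and 4.09 after 5 weeks, with a -log10 q of 4.21, 3.73 and 13.2. The outermost start at 119146249, which coincides with no internal exon, also had a peak in each list, 347 bp upstream in WT, 296 bp after 1 week and 199 bp after 5 weeks. These were weaker, with a -log10 q of 1.82, 2.39 and 4.46. Another start, at 118707992, had a peak 647 bp upstream after 5 weeks alone, with a -log10 q of 2.31.

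At Cacna1d, the gene of Cav1.3, no list had a peak within 11 kb of the outermost start at 31304342. The start at 31166672, with the GC-rich window shown above, had a peak 242 bp upstream after 5 weeks (chr14:31166914-31167538) with fold 2.0 and -log10 q 1.96. A stronger peak in each list lay just downstream of it, 487 bp from the start in WT and 890 bp after 1 week. Its -log10 q was 15.0 in WT, 12.3 after 1 week and 15.9 after 5 weeks, and its mean height over the genome background 13.3, 5.59 and 6.60. In the window reaching 500 bp downstream, Cacna1d was called in WT and after 5 weeks, so its call after 5 weeks alone depends on the window.

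Other genes of the same families and steps were counted in the full lists with the same promoter window, and not under the alternative settings. Promoters of 19 of 24 related genes were called in WT, 15 after 1 week and 18 after 5 weeks, and 14 in all lists. Of all protein-coding genes, 59.0% were called in WT, 55.9% after 1 week, 65.6% after 5 weeks and 50.4% in all lists. Cacnb2, an auxiliary calcium channel subunit, was among the 14, with a WT percentile of 91.4. Slc2a2, which carries glucose into beta cells, and Abcc9, the Sur2 relative of Abcc8, were called in WT alone, at percentiles 26.6 and 28.4. The calcium channel subunits Cacna1h and Cacnb1 were called in WT and after 5 weeks, as Abcc8 was. Cacnb4 was called after 1 week alone and Cacna2d2 after 5 weeks alone, and Cacna1f, Cacna1i and Cacna2d4 in no list.

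Apart from peaks at promoters of neighbouring genes, the strongest WT peaks of Abcc8, Trpm5, Cacna1c and Cacna1d lay in introns and were found in every list. The centres of 5 of them, the strongest intronic WT peaks of Abcc8 and the strongest of Trpm5, Cacna1c and Cacna1d that lie at no other gene's promoter, are shown as 300 bases around the centre of the WT peak on the coding strand. Capitals mark matches on either strand to CAGATG (an E-box of the NeuroD1 type), TGCTGA (Maf-type word) and GTTAAT (Hnf1-type word). They lie at chr7:53378446-53378745, chr7:53401146-53401445, chr7:150263299-150263598, chr6:118847177-118847476 and chr14:30977497-30977796. For the Abcc8 stretch labelled 33929 bp, that distance is to the centre of the joined region. The centre of its WT peak, around which the bases were taken, is 34107 bp from the start.
Abcc8, intron, 56807 bp from the start: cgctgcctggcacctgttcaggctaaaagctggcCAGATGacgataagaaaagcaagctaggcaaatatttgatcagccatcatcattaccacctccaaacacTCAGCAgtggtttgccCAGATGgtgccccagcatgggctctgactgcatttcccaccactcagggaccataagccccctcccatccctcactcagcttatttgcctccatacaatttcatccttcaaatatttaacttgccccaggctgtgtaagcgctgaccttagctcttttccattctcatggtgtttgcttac
Abcc8, intron, 33929 bp from the start: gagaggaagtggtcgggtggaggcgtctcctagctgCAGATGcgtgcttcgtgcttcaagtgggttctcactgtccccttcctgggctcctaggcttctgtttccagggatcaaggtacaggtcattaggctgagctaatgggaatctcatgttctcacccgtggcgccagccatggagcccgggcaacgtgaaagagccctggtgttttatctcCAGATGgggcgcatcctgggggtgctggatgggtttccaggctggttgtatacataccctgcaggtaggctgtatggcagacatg
Trpm5, intron: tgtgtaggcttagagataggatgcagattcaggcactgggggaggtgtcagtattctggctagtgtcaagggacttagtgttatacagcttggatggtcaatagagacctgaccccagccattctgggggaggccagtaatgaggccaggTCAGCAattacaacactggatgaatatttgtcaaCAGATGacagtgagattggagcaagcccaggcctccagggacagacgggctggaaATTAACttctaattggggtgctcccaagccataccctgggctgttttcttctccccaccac
Cacna1c, intron: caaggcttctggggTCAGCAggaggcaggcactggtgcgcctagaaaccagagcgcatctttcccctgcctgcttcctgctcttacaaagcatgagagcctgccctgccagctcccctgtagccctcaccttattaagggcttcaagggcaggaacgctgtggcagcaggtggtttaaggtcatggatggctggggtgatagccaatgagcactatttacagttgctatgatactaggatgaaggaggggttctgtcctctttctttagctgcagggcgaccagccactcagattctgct
Cacna1d, intron: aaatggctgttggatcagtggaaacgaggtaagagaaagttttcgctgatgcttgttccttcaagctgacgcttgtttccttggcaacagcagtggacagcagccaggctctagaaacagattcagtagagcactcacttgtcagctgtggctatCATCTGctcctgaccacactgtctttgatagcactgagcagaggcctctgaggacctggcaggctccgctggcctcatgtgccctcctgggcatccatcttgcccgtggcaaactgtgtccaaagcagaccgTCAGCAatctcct

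CAGATG occurred in 4 of these 5 and in 26.2% of the centres of all WT peaks, and TGCTGA also in 4 of 5 and in 26.4%. Each is a short word and a match describes only these letters. GTTAAT was in the Trpm5 region and in 8.71% of all centres. The other 6 words were in none of them, and occurred in 19.1% (GC box), 8.50% (TATA box), 6.03% (homeodomain core), 6.11% (the CACGTG E-box), 6.71% (forkhead) and 11.8% (AP-1) of all centres.

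The first of the Abcc8 peaks was among the strongest of each list. It stood at place 1078 from the top in WT, 1382 after 1 week and 1455 after 5 weeks, with a fold of 4.17, 5.66 and 4.35 and a -log10 q of 26.1, 18.5 and 29.4. The other Abcc8 peak stood at place 1514 in WT, 7629 after 1 week and 3378 after 5 weeks, with a -log10 q of 24.1, 10.3 and 24.0. The lists differ in length, so these places are given side by side. The mean height fell at both regions, from 24.6 in WT to 6.97 after 1 week and 10.2 after 5 weeks at the first, and from 18.6 to 5.16 and 8.66 at the second. The Abcc8 regions lost after 1 week were weak. The strongest of them in WT, beyond the 3′ end at chr7:53340198-53340913, had a -log10 q of 2.73 and was back after 5 weeks with 3.84. The strongest absent after 5 weeks, in an intron at chr7:53423837-53424071, had 2.30. The strongest 5 week region without a WT peak lay upstream of the start at chr7:53437048-53437315, with a -log10 q of 7.63. At Kcnj11, 5 of 7 regions were in all lists, and no region was new in a Taf4 KO list. The WT regions not found there were the flank region just named, absent after 1 week, and a weak one with a -log10 q of 1.30, absent at both times.

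The Trpm5 intronic peak had a -log10 q of 14.7 in WT, 9.75 after 1 week and 25.1 after 5 weeks, at places 6338, 8582 and 2882. It was the only region inside Trpm5 and away from its ends found in all lists. Stronger in WT was a peak over the last exon (place 2617 in WT, 20319 after 1 week and 1966 after 5 weeks), which is also at the promoter of the neighbour Tssc4. Peaks of the Trpm5 flanks at chr7:150238560-150240013 and chr7:150293053-150294585 likewise lie at the promoters of Cd81 and Kcnq1, so part of the Trpm5 count belongs to other genes. The strongest WT region absent after 1 week, at chr7:150272301-150273548, had a -log10 q of 2.96, and the single one absent after 5 weeks had 1.13. The 5 regions found after 5 weeks alone, the promoter peak included, had a -log10 q between 1.34 and 4.69.

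Most Cacna1c regions in all lists ranked higher among the shared regions after Taf4 loss, while 25 of 26 were lower in height after 1 week than in WT and 23 after 5 weeks. Lower heights were common, at 84.6% and 86.6% of all shared regions. They were 92.4% and 88.4% in group 4 of 5 when the shared regions were split from low to high GC. The region at chr6:118846821-118847696, whose centre is shown, had a -log10 q of 14.4 in WT, 17.9 after 1 week and 28.5 after 5 weeks, at places 6597, 1554 and 1696. A second, at chr6:118899999-118901078, stood at place 7351 in WT, 3623 after 1 week and 438 after 5 weeks, with a mean height of 12.0, 6.11 and 9.52. Of 26 Cacna1c regions in all lists, 21 stood higher among shared regions after 1 week than in WT and 19 after 5 weeks, with a median shift of 6.41 and 10.4 percentile points, against 51.0% and 48.2% of all 36612 shared regions. The strongest WT region without a 1 week peak was at chr6:118884277-118884759, with a -log10 q of 8.59 in WT and 7.70 after 5 weeks. The strongest without a WT peak was at chr6:118817997-118818285 after 1 week, with 6.32, and at chr6:118902429-118902710 after 5 weeks, with 8.07. The strongest WT region absent after 5 weeks had 2.78. An intronic peak at chr6:119125025-119125912 lies at the promoter of Dcp1b.

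At Cacna1d, the strongest peak of the locus, at place 171 in WT, 4059 after 1 week and 133 after 5 weeks, lies at the promoter of the neighbour Dcp1a. The intronic region shown, chr14:30977326-30978004, had a -log10 q of 19.7 in WT, 10.6 after 1 week and 40.5 after 5 weeks, at places 3086, 7249 and 199. Another region, at chr14:31276296-31276838, had a -log10 q of 9.59, 5.41 and 29.8 and a mean height of 7.28 in WT, 3.89 after 1 week and 7.25 after 5 weeks. A region at chr14:31009400-31010777 had a -log10 q of 8.25, 16.4 and 25.8 and a mean height of 7.26, 6.75 and 7.43. Of the 16 Cacna1d regions in all lists, 16 were lower in height after 1 week than in WT and 15 after 5 weeks. Of all shared regions, 84.6% and 86.6% were lower. In the middle GC group it was 87.2% and 85.6%, and in the next 92.4% and 88.4%. The strongest WT region without a 1 week peak, at chr14:31057880-31058357, had a -log10 q of 11.1 in WT and 3.03 after 5 weeks. Conversely, a region at chr14:30972510-30973018 had no WT peak and a -log10 q of 5.77 after 1 week and 15.9 after 5 weeks, and its 5 week value was the highest of any region at the 5 loci without a WT peak. The strongest WT region absent after 5 weeks had 2.52.

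**Figure D3:**
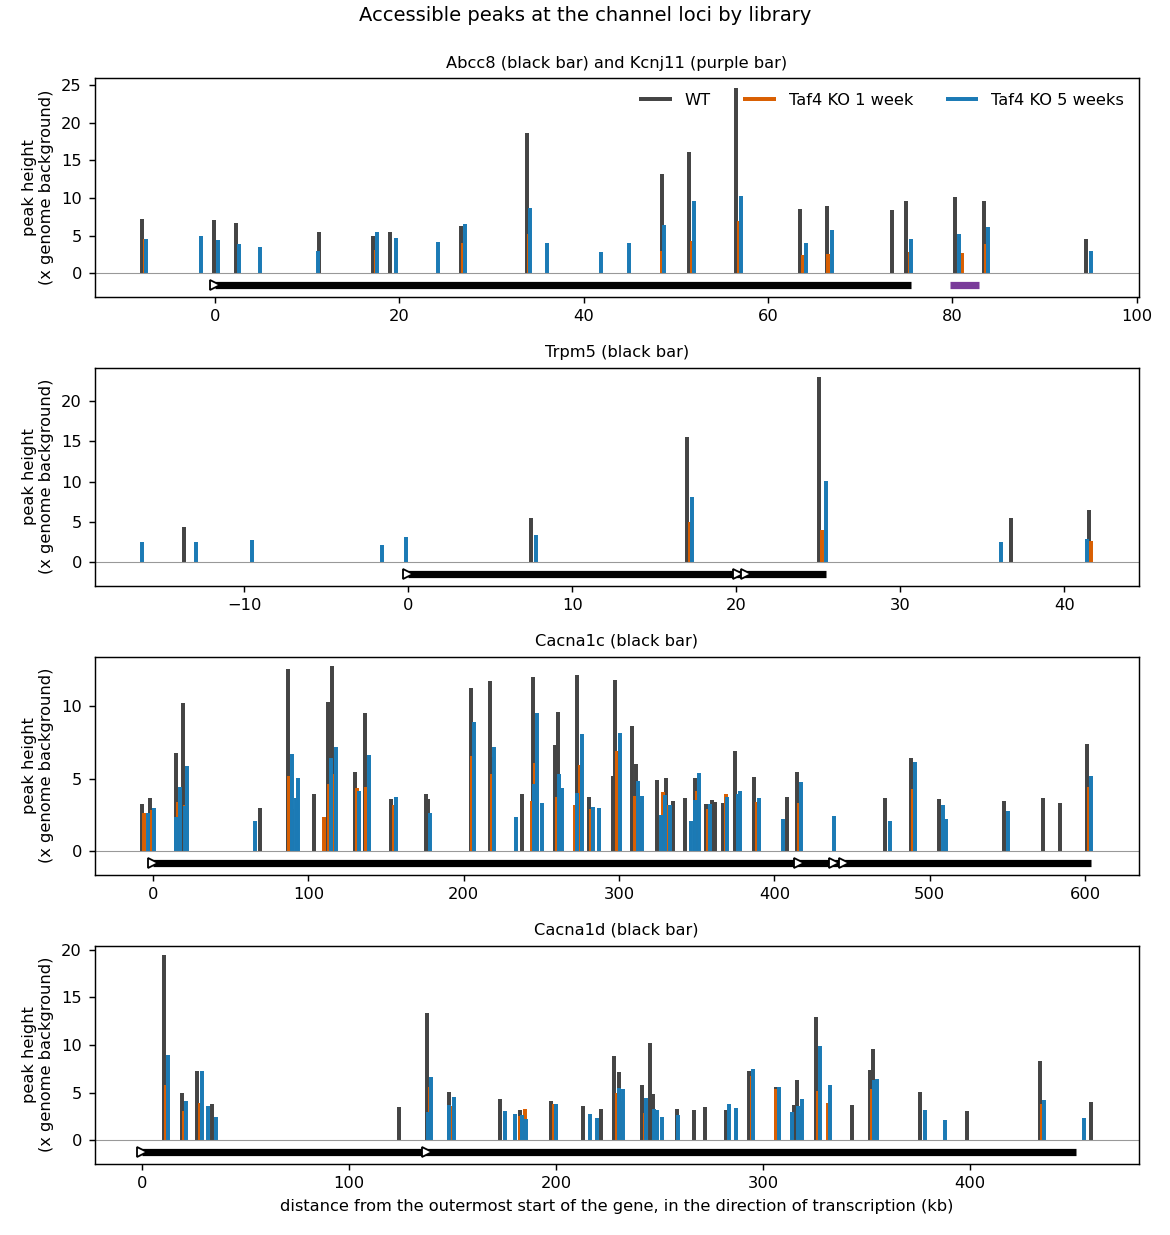
Peaks at the loci by distance from the outermost start in kb (horizontal axis, along the direction of transcription) and mean height in multiples of the genome background of the library (vertical axis). Each line is 1 peak, the libraries are set slightly apart sideways for display, bars are gene bodies and triangles annotated starts. The tallest Abcc8 line, 56807 bp from the start, reaches 24.6 in WT, 6.97 after 1 week and 10.2 after 5 weeks.

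Because fold and q depend on depth and on the surroundings, the mean read height of each peak was also expressed in multiples of the background floor of its library. Height still depends on the share of a library's reads that lie in peaks, and the part of this share was not tested. By height the shared regions of the channel loci were highest in WT, lowest after 1 week and in between after 5 weeks, with medians of 7.42, 3.98 and 5.44. The medians over all 36612 shared regions were 6.42, 4.10 and 4.79. Of the 57 regions, 56 were lower after 1 week than in WT, against 84.6% of all, 51 were lower after 5 weeks, against 86.6%, and 54 were higher after 5 weeks than after 1 week, against 65.4%. In the most GC-rich group these shares were 97.8%, 93.3% and 91.9%, and in the next 92.4%, 88.4% and 79.8%. The order was sharpest at the potassium channel genes and Trpm5. The median height after 1 week was 0.288 times WT over the 12 Abcc8 regions, 0.290 over the 5 of Kcnj11 and 0.324 over the 3 of Trpm5, against 0.583 at Cacna1c and 0.545 at Cacna1d. The ratio over all shared regions was 0.646, and it was 0.451 in the most GC-rich group and 0.573 in the next. After 5 weeks the ratios were 0.557, 0.514 and 0.452 for Abcc8, Kcnj11 and Trpm5, and 0.708 and 0.762 for Cacna1c and Cacna1d, against 0.704 over all shared regions, 0.618 in the most GC-rich group and 0.680 in the next. The 5 Kcnj11 regions are among the 12 of Abcc8, so these are not separate observations. The 3 Trpm5 regions include the promoters of Cd81 and Tssc4. The remaining one, in a Trpm5 intron, had a height of 15.5 in WT, 5.02 after 1 week and 8.13 after 5 weeks.

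**Figure D4:**
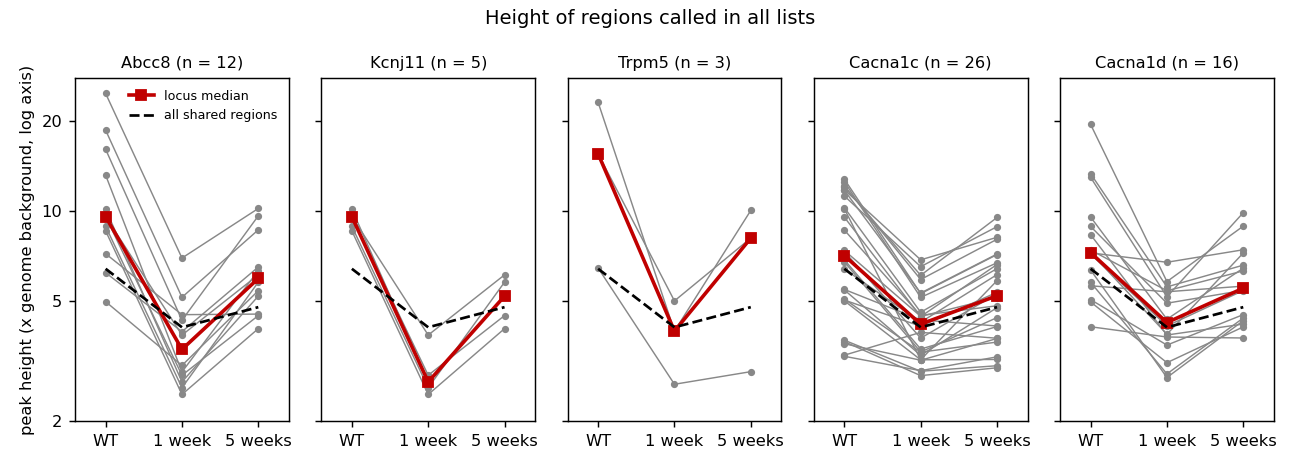
Mean height of regions found in all lists, in multiples of the genome background of the library (log axis), by library (WT, Taf4 KO 1 week and 5 weeks). Each grey line is 1 region, red squares are locus medians and the dashed line the median of all shared regions. At Abcc8 the median runs from 9.59 in WT to 3.46 after 1 week and 5.96 after 5 weeks.

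The surroundings of the peaks followed the same order. The local background around a peak, which the caller takes from neighbouring reads, had a median of 3.55 times the genome background at Abcc8 in WT, 1.07 after 1 week and 1.89 after 5 weeks. At Kcnj11 it was 3.92, 1.05 and 2.22, and at Trpm5 2.42, 1.08 and 1.10. Cacna1c had 1.51, 1.05 and 1.24 and Cacna1d 1.38, 1.07 and 1.13. Over all peaks of the lists the medians were 1.25, 1.06 and 1.06, and over shared regions of the most GC-rich group 2.1, 1.05 and 1.32. So in WT the recovered local background around Abcc8 and Kcnj11 was well above the genome background, which also lowers the fold of the peaks there. After 1 week this surplus was nearly absent. Reads outside peaks were not examined, and the part of the peaks' own reads in this local background was not tested.

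The peaks at the loci ranked low in the WT list and higher in the Taf4 KO lists. Of the peaks at the loci, 6 of 105 (5.71%) were in the top 10% of the WT list, 21 of 68 (30.9%) after 1 week and 27 of 122 (22.1%) after 5 weeks. The Taf4 KO lists hold more weak peaks elsewhere, and among shared regions alone the median shift in rank at the loci was 2.59 percentile points after 1 week (34 of 57 up) and 8.66 after 5 weeks (36 of 57 up). Over all shared regions the median shifts were 0.516 and -0.580. The members differed after 1 week, with a median shift of -6.45 at Abcc8 (4 of 12 up), -15.0 at Kcnj11 (1 of 5), -21.5 at Trpm5 (0 of 3), 6.41 at Cacna1c (21 of 26) and 2.41 at Cacna1d (9 of 16). After 5 weeks the shifts were -2.44 (4 of 12), -6.63 (1 of 5), 1.71 (2 of 3), 10.4 (19 of 26) and 9.90 (11 of 16). The Kcnj11 regions are also among those of Abcc8. The Trpm5 medians are the shifts at promoters of neighbouring genes, Cd81 after 1 week and Tssc4 after 5 weeks. The remaining Trpm5 region, in an intron, stood at percentile 83.3 of shared regions in WT, 77.7 after 1 week and 92.2 after 5 weeks. The median width at the loci was below that of the list in WT and after 1 week and above it after 5 weeks, at 465 bp in WT, 506 bp after 1 week and 610.5 bp after 5 weeks, against 499, 524.5 and 544 bp over the lists.

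Genes with the most similar promoter percentiles over the 3 libraries were Pitpnm3, Htra1 and G0s2 for Abcc8 and Shisa5, Slc48a1 and Trex1 for Cacna1c, at Euclidean distances of 1.11 to 2.03 and 1.05 to 3.23 percentile points. For the genes called after 5 weeks alone the match rests on 1 percentile. It gave 4930579J09Rik, Galnt6 and Scube2 for Kcnj11, Sec31b, Cyp2t4 and Gm3109 for Trpm5, and Tmem200a, Acsm1 and Tmem179 for Cacna1d. Within a distance of 5 there were 26 genes for Abcc8, 147 for Kcnj11, 119 for Trpm5, 18 for Cacna1c and 118 for Cacna1d.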

How the data were processed

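ATAC-seq was performed on dissociated islet cells in 3 libraries, WT and Taf4 KO at 1 and 5 weeks, grouped by the genotype and time labels. Reads were mapped by the authors to mm9 with Bowtie 1.0.0, keeping uniquely placed reads, after bcl2fastq 2.17.1.14, and broad peaks were called per library with MACS2 2.1.1, per the labels. A control library, duplicate removal and shifting of reads to the insertion site are not given in the sources used here. The deposited lists hold 3 values used here for each peak, each a mean over it: a ratio (fold over the local background) and the significances, as -log10 p and -log10 q. The score deposited by the authors was not used. Mitochondrial peaks, 2 per list, were left out.

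Members and lists were chosen with earlier results of these data known. Genes and 46015 starts came from GENCODE for NCBIM37, the same build as mm9. Peaks sharing 1 bp were joined into regions. Named peaks were, per member, each promoter peak, the strongest WT peak, the strongest WT region absent from each Taf4 KO list and the strongest region of each Taf4 KO list absent from WT. Other strong shared regions named at Cacna1c and Cacna1d, and the second Abcc8 peak, were chosen after their values were seen. Some of the related genes are counted but not reported here by name. Percentiles and places rank the -log10 q within a list. The local background and the mean pileup were estimated from fold and -log10 p together, by the Poisson tail. Both inputs are means over a peak, so these values are approximate. The first percentile of these backgrounds was the floor, 3.66 reads in WT, 6.45 after 1 week and 9.38 after 5 weeks, and height is pileup over floor. The floor grows with read number and with the length of read extension, which was taken as equal. Read totals were not analysed here. Overlap and joining were tested on simulated lists, and recovery of the floor on simulated peaks with a constant background each. The error for wide peaks that join strong and weak stretches was not tested. The GC groups used the surrounding 1 Mb and were cut separately among genes, WT peaks and shared regions, so their limits differ. With 1 library per group no test between conditions was made. Analyses used Python 3.11.15, numpy 2.4.6, pandas 2.3.3 and scipy 1.17.1.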

Additional observations from a re-analysis of the deposited data

Results flagged for a closer look

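At 4 loci the number of peaks moved in opposite directions at the 2 times, compared with the same WT library. At Abcc8 it changed by -6 after 1 week and by 5 after 5 weeks, at Trpm5 by -3 and 4, at Cacna1c by -13 and 4, and at Cacna1d by -15 and 4. The difference was not tested, since each group had 1 library, and 30.5% of genes with 5 or more WT peaks moved in the same way. The background floor was higher after 5 weeks than after 1 week, 2.57 against 1.76 times WT, and its part in these counts was not tested beyond the alternatives below.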

How the results depend on the processing

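No paired analysis was possible because each group had 1 library. Of 42 values under the alternatives, 21 stayed within 1.5 times the count reported or within the 95% interval of the share reported, and 21 did not. A count can stay within that range and still turn a comparison with WT, as noted below for 5 weeks. With lists of equal number the promoter calls after 5 weeks fell to 3 of 5. With a -log10 q of at least 3, 51 WT peaks were left, promoter calls were 1 in WT and 3 after 5 weeks, and the WT peaks found again were 82.4% after 1 week and 96.1% after 5 weeks. With at least 5, peaks numbered 33, 39 and 66 in WT, after 1 week and after 5 weeks, promoter calls 0, 0 and 1, and shares found again were 78.8% and 97.0%. After scaling to the WT background the 5 week list held 81 peaks and 3 promoter calls at the loci and overlapped 61.9% of WT peaks, so its count was then below the 105 of WT. It was also below WT with lists of equal number, at 89. The wider promoter window gave 4 calls in WT and 2 after 1 week. A reciprocal overlap of 50% gave 41.0% and 54.3%. Filters, cutting and scaling leave fewer peaks by construction. Likewise a wider window can only add promoter calls, and a stricter overlap can only lower a share. The cause of the other moves was not tested. Peaks below each list's calling threshold, at a -log10 q near 1, cannot be seen, so an absent peak is one not detectable at this depth.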
